A study of Mus musculus with 4 samples.

Results

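Mitochondrial ribosomal protein genes were compared between 4T1 cells with high and with low mitochondrial membrane potential (MMP). Members were the protein-coding genes whose mouse symbol starts with Mrpl or Mrps and a digit, with pseudogenes left out. They numbered 77 of the 20197 genes in the table, 48 with an Mrpl symbol (large subunit) and 29 with an Mrps symbol (small subunit). The annotation holds 78 such genes, and 1 of them was not analysed here. All 77 had a mean of at least 10 normalized reads, so a filter on low values removed none.

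Mitochondria carry their own ribosome, which translates the few messages of the mitochondrial genome into core subunits of the respiratory chain and of ATP synthase. Its ribosomal RNAs are encoded in mitochondrial DNA, but every one of its proteins is encoded in the nucleus, made in the cytosol and imported. The small subunit reads the message and the large subunit joins the amino acids. Some of the proteins have a counterpart in the bacterial ribosome, and others were added in the mitochondrial lineage. The respiratory chain builds the membrane potential by which the cells were sorted.

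The 4T1 line is a wild-type mouse mammary tumor line grown in culture, and all 4 samples come from that 1 line and carried the same dye. The cells were labelled with 20 nM MitoSpy Red, which accumulates in mitochondria according to their potential. The brightest 5% were collected as high MMP and the dimmest 5% as low MMP cells, with 100000 cells per sample, 200 ng of RNA entering a stranded mRNA library and 75-base reads. There were 2 samples per group, numbered 1 and 2. The study describes the samples of this comparison as independent experiments or tumors, without linking the sample numbers to them.

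Values are normalized reads, on a scale where each library sums to 20000000. The libraries held between 22591970 and 26395015 reads, recovered from the deposited values. Differences are high minus low MMP on the log2(normalized reads + 1) scale. Because the samples are bulk RNA scaled to a total, fewer cells of a type and less RNA per cell cannot be told apart. Epithelial markers were present, with *Epcam* between 3647 and 4619 and *Krt8* and *Krt18* between 13139 and 19554 normalized reads, while *Krt5* was not in the table. Of the leukocyte list 2 of 6 genes were in the table, and the defining marker *Ptprc* was between 0 and 1.77, while *Cd68*, a macrophage marker, had 59.9 and 139 normalized reads in high MMP and 149 and 91.2 in low MMP cells. Of the endothelial list 2 of 4 were in the table, at 5.30 or less. Of the fibroblast list 3 of 5 were in the table. *Pdgfra* stood between 319 and 589, with a difference of -0.72 (unadjusted p 0.00270, limma adjusted p 0.472), and the other two at or under 10.5.

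Before any comparison between the groups, the 4 libraries were set side by side, because the high MMP samples stood apart from each other in these genes. In high MMP replicate 1 the 77 genes took 0.390% of all reads (95% Wilson interval 0.387% to 0.392%), and in high MMP replicate 2 they took 0.338% (0.335% to 0.340%). The low MMP replicates lay between them, at 0.356% (0.353% to 0.358%) and 0.373% (0.370% to 0.375%). These intervals cover counting error only. The groups therefore overlapped, with the highest and the lowest share both in high MMP cells. Of the 77 genes, 72 were higher in high MMP replicate 1 than in replicate 2, with a median gap of 0.21 on the log2 scale. Between the low MMP samples the median gap was -0.057, and 17 genes were higher in replicate 1.

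Counted gene by gene, 52 members had their highest value in high MMP replicate 1 and 53 had their lowest in high MMP replicate 2. Both held for 35 of 77 (45.5%), against 13.6% of the 12902 genes averaging 10 normalized reads or more (called expressed genes below). The gap between the high MMP samples ran from -0.19 in *Mrps18b* to 0.48 in *Mrpl16*, both genes singled out after their values were seen. The replicates differed by more than sampling noise, with a chi-square per gene of 17.7 between the high MMP and 3.44 between the low MMP samples over the members. Over all genes the same measures were 31.9 and 6.91, so within each group the replicates were not the same library deposited again.

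**Figure D1:**
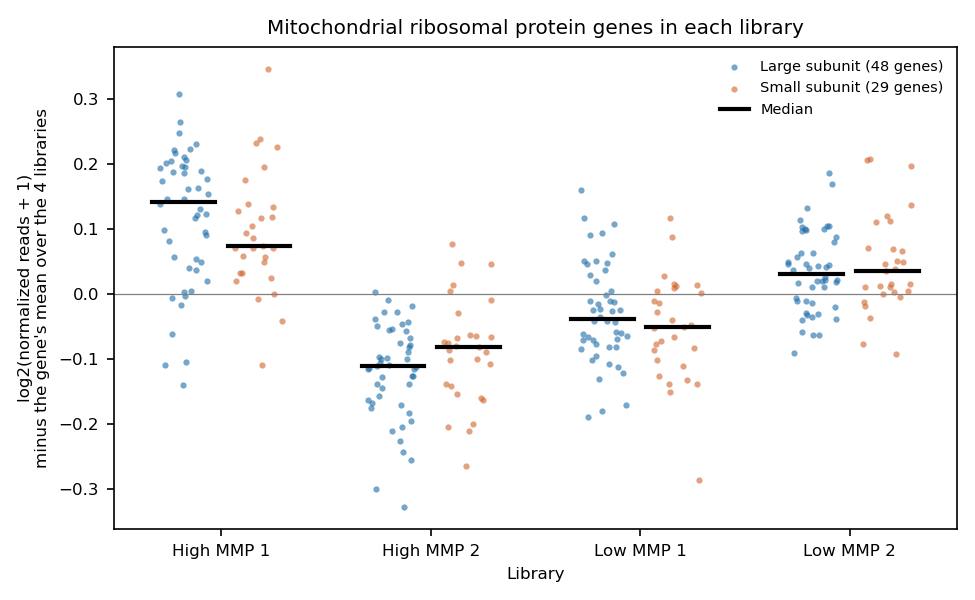
Each point is 1 gene, plotted by library (x axis) as its log2(normalized reads + 1) minus its own mean over the 4 libraries (y axis), with large-subunit genes in blue, small-subunit genes in orange and medians as black lines. Medians of the large-subunit genes are highest in high MMP replicate 1 (0.14) and lowest in high MMP replicate 2 (-0.11), with both low MMP libraries between them.

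The gap between the high MMP samples was also read in a few other gene groups. The 83 cytosolic ribosomal protein genes had a median gap between the high MMP samples of 0.30, and 77 of them were higher in replicate 1. The 37 nuclear-encoded subunits of respiratory complex I had a median gap of 0.25, with 35 higher in replicate 1. In 70 of the 83 and 24 of the 37, the highest value was in high MMP replicate 1 and the lowest in high MMP replicate 2. That pattern was thus not particular to the members. Over all expressed genes the median gap was -0.021. Members have short messages, with a median longest coding transcript of 1404 bases against 2996 for expressed genes. Across those genes with an annotated length (n = 12877, one point per gene, all from the same libraries) the gap between the high MMP samples had a Spearman correlation of -0.35 with transcript length, and across the 77 members one of -0.24. After the trend with length was removed from each library, the members' median gap was 0.16, with 66 genes higher in replicate 1. Messages of the mitochondrial genome moved the other way, at 1.27% of reads in high MMP replicate 1 against 2.14% in high MMP replicate 2, and 2.02% and 2.24% in low MMP cells. The part of length or of these messages in the members' gap was not tested.

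The first comparison asked whether the mitochondrial ribosomal protein genes differ in expression between high and low MMP cells. None of the 77 genes passed an adjusted p of 0.05 in either direction in limma, and none of the 20197 genes tested did (0%). At an unadjusted p under 0.05 there were 0 members, against 9.96% of all genes (2011 genes). Of the 12902 expressed genes, 984 had such a p. The smallest unadjusted p among members was 0.0549, for *Mrpl24*, with an adjusted p of 0.518. The median difference of the members was -0.00028, with 38 genes above 0 and 39 below, whereas the median over all genes was -0.044 and over expressed genes it was -0.035.

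The members also differed little from one another. Their differences ran from -0.35 (*Mrpl23*) to 0.27 (*Mrps6*), with an SD over genes of 0.10. Over expressed genes that SD was 0.28, and over those averaging 100 normalized reads or more it was 0.21. A difference within 0.2 of 0 was found in 73 of 77 members (94.8%), against 66.8% of expressed genes. Among genes averaging 100 normalized reads or more the share was 75.1%. The cytosolic ribosomal protein genes had 95.2% (SD 0.10) and the complex I subunits 94.6% (SD 0.13). The narrow range was thus not particular to the members. A p that misses the threshold does not show equal expression, so the interval of each difference matters. The 95% intervals reached between 0.19 and 0.58 to either side of the difference, with a median of 0.31. All 77 intervals lay within 1 on either side of 0, and 60 lay within 0.5. The lowest bound was -0.73, in *Mrpl23*, and the highest was 0.81, in *Mrps6*.

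**Figure D2:**
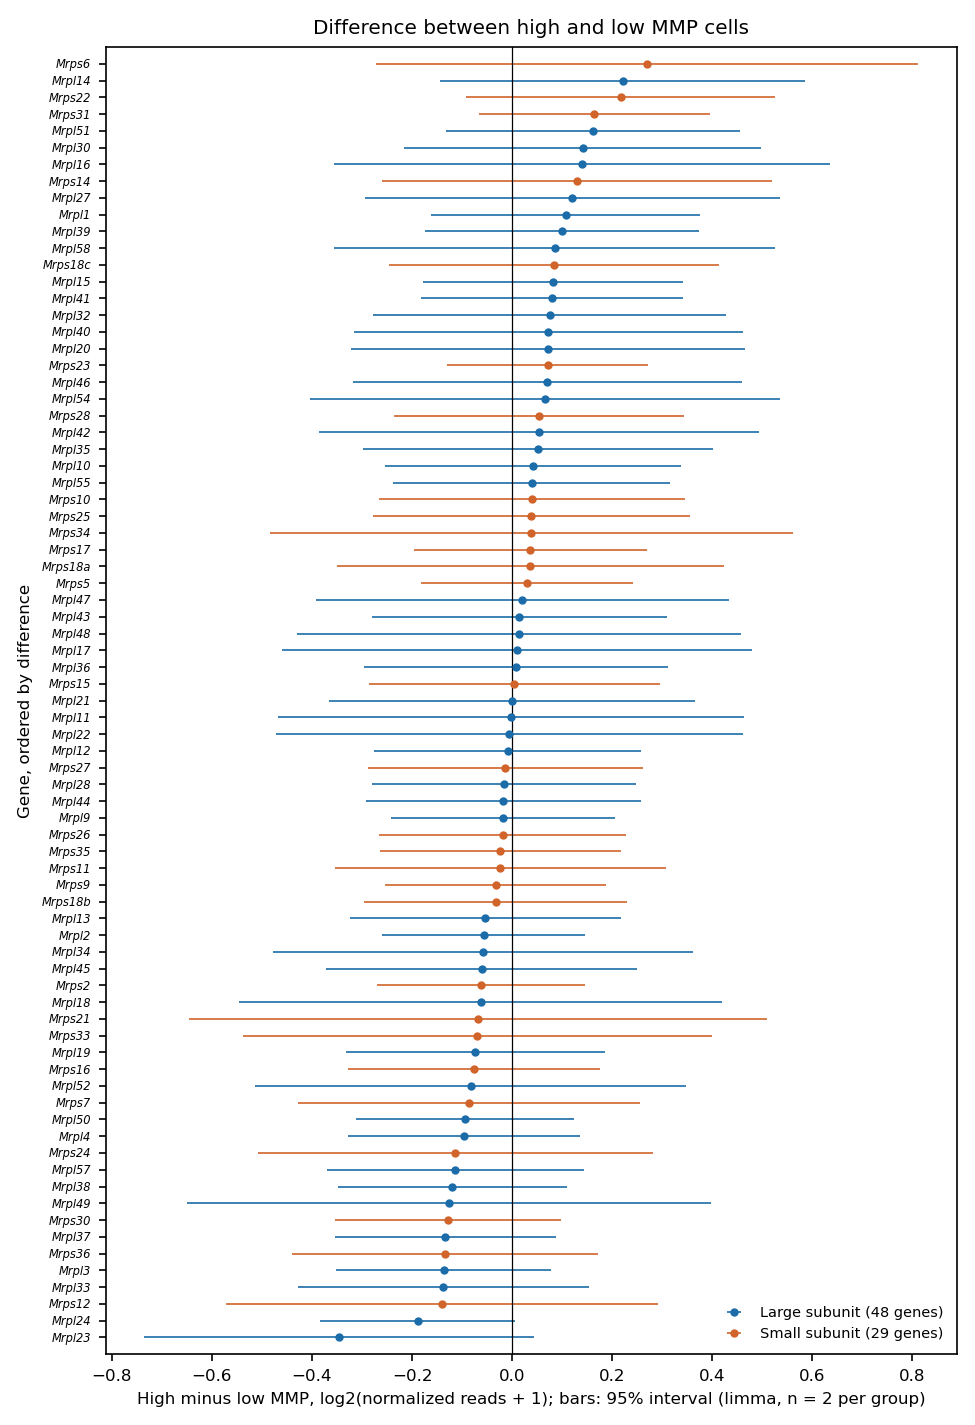
Points give the high minus low MMP difference of each of the 77 genes on the log2(normalized reads + 1) scale (x axis), ordered by difference (y axis), with blue for the large and orange for the small subunit. Bars are 95% intervals from limma (2 samples per group). All 77 bars cross 0, with *Mrpl24* ending just above it, and none reaches 1 in either direction.

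In 6 members both high MMP values lay above both low MMP values, and in 12 they lay below. These shares, 7.79% and 15.6%, were under those of all expressed genes, which were 14.3% above and 23.7% below. Leaving out 1 library moved the members together. Their median difference was -0.10 without high MMP replicate 1, with 13 genes above 0, and 0.12 without high MMP replicate 2, with 61 above 0. It was -0.039 without low MMP replicate 1 and 0.032 without low MMP replicate 2. When the libraries were rescaled by the median of gene-wise ratios, 51 members lay above 0 and the median was 0.041, while the median over all genes was -0.0093.

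Tests on the recovered reads called no member, and some of them called more genes than limma. The quasi-likelihood test of edgeR called 0 genes, with 0 members at an unadjusted p under 0.05. DESeq2 called 0.954% of the genes it gave an adjusted p, and edgeR with the sample number in the model called 0.525%. With the numbers crossed, a fit chosen after seeing the data, edgeR called 3.63%. Members called numbered 0 in each of these, and the smallest adjusted p of a member over all fits was 0.202.

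The second comparison set the large subunit against the small one. Genes with an Mrpl symbol had a median difference of 0.0036 (48 genes, 24 above 0) and those with an Mrps symbol one of -0.014 (29 genes, 14 above 0). The large minus small difference of 0.018 was smaller than the replicate SD of that quantity, 0.049, and no test is given for a score over members. In single libraries, the large minus small deviation from the 4-library mean was 0.068 and -0.029 in high MMP cells and 0.013 and -0.0037 in low MMP cells. The highest and lowest deviation were again both in high MMP cells.

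For each read of the small subunit there were 2.24 and 2.14 reads of the large subunit in high MMP replicates 1 and 2, and 2.25 and 2.19 in the low MMP replicates. The groups overlapped in this ratio. Symbols do not always name the right subunit: *Mrps18a* and *Mrps30* sit in the large subunit of the mammalian mitoribosome, and *Mrps36* is a component of the 2-oxoglutarate dehydrogenase complex. With genes placed by structure (50 large, 26 small, *Mrps36* in neither), the medians were 0.0036 and -0.0049 and the large minus small difference was 0.0084. The 45 members with a bacterial counterpart had a median difference of -0.0025 and the 31 without one a median of 0.014. *Mrps18a* and *Mrps18b*, paralogs of a bacterial protein whose place *Mrps18c* holds, were counted among those without one.

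The levels of the 2 subunits were compared per length, as normalized reads per kilobase of the longest coding transcript, averaged over the 4 libraries. The median was 587 for large-subunit genes and 458 for small-subunit genes, and per kilobase of all annotated exons 445 and 270.2. In every library the large-subunit median was the higher one, at 650 against 497 and 528 against 418 in high MMP replicates 1 and 2, and at 563 against 451 and 592 against 469 in the low MMP replicates. Genes with a bacterial counterpart had a median of 625 and those without one of 451. For scale, complex I subunits had a median of 1215 and cytosolic ribosomal proteins one of 11662, on the same per-kilobase scale. Members took their places over a wide range, from 85.8 for *Mrpl48* to 3696 for *Mrpl13*.

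Among the most abundant per length was *Mrpl13*, the homolog of a core protein of the bacterial large subunit. It had 4698 and 4181 normalized reads in high MMP and 4483 and 4718 in low MMP cells. *Mrpl42*, which has no bacterial counterpart, followed at 2485 per kilobase and had 1953 and 1487 in high MMP and 1559 and 1732 in low MMP cells. *Mrpl20*, needed in bacteria to start large-subunit assembly, had 1876 per kilobase, with 1758 and 1368 in high MMP and 1447 and 1506 in low MMP cells. In each of these 3 genes the high MMP samples spread more widely than the low MMP samples, and the groups overlapped. Their differences were -0.053, 0.053 and 0.071. The lowest per length were *Mrpl48*, *Mrps33* (138) and *Mrpl17* (141). The longest coding transcript of *Mrpl17* is 7300 bases and that of *Mrpl48* 4285, which lowers a per-length level if shorter forms are used. The order also depends on the length taken: per kilobase of all annotated exons, *Mrpl12* (1601) and *Mrpl28* (1271, named after its value was seen) led, while *Mrpl20* had 913, *Mrpl13* 570 and *Mrpl42* 457. *Mrps33*, a small-subunit protein without a bacterial counterpart, was also the least abundant member by reads, with 167 and 132 in high MMP and 148 and 165 in low MMP cells.

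**Figure D3:**
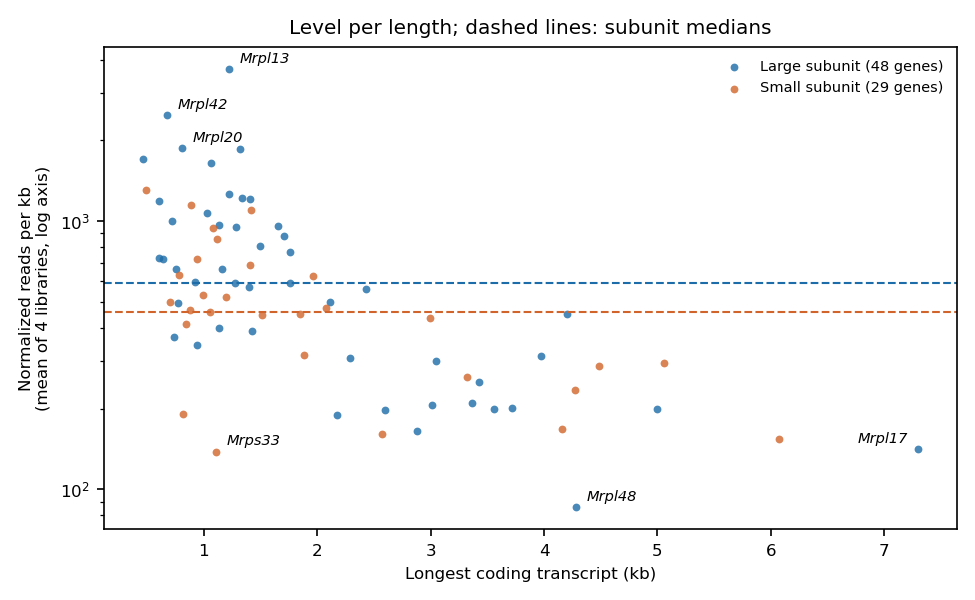
Each point is 1 gene, with the length of its longest coding transcript in kilobases on the x axis and its mean level over the 4 libraries in normalized reads per kilobase on the y axis (log scale). Blue marks the large and orange the small subunit, and dashed lines are their medians (587 and 458). The 3 highest genes are short and in the large subunit, and many of the lowest have long transcripts.

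Single members are described next, those of lower value in high MMP cells first. *Mrpl23* codes for a large-subunit protein whose bacterial counterpart lies at the exit of the tunnel through which the new chain leaves. It lies on GRCm38 chromosome 7, from 142532686 to 142540747, on the plus strand. It had 266 and 214 normalized reads in high MMP cells and 301 and 306 in low MMP cells, so both high MMP samples were below both low MMP samples. Its difference was -0.35 (SE 0.14, limma adjusted p 0.558), the most negative of the 77. A processed pseudogene, *Mrpl23-ps1*, had 7.58, 11.7, 7.85 and 7.97 in the same order, and reads matching both copies may have been assigned to either.

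*Mrpl24* codes for another large-subunit protein placed near the tunnel exit in bacteria. It had 1515 and 1547 in high MMP and 1740 and 1750 in low MMP cells, with a gap between the groups wider than within them. Its difference was -0.19 (SE 0.07, adjusted p 0.518). *Mrpl3*, a core large-subunit protein mutated in a human mitochondrial cardiomyopathy, had 1196 and 1185 against 1354 and 1265. Its difference of -0.14 (SE 0.08, adjusted p 0.690) also came with no overlap. *Mrpl33*, a small large-subunit protein with a bacterial counterpart, had 373 and 412 against 412 and 451, and its groups touched without overlap. *Mrps12*, the protein of the decoding centre of the small subunit, had 430 and 354 against 391 and 473. Its difference was -0.14 like that of *Mrpl33*, but its groups overlapped.

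At the other end, *Mrps6*, a small-subunit protein with a bacterial counterpart, had 441 and 329 in high MMP and 284 and 351 in low MMP cells. Its difference was the highest of the 77 at 0.27 (SE 0.20, adjusted p 0.763), yet the groups overlapped and the difference was 0.059 without high MMP replicate 1. Its exons overlap those of *Slc5a3* on the same strand, a sodium-coupled inositol transporter gene that had 896 and 791 in high MMP and 779 and 1069 in low MMP cells. Reads from the shared exon cannot be told apart. *Mrpl14*, a large-subunit protein at the face where the subunits meet, had 556 and 449 against 423 and 435, a difference of 0.22 (SE 0.13, adjusted p 0.708).

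*Mrps22*, a small-subunit protein found in mitochondria and not in bacteria, had 727 and 618 against 564 and 589, a difference of 0.22 (SE 0.11, adjusted p 0.664). *Mrps31*, also a mitochondrial addition to the small subunit, had 734 and 700 against 620 and 660, a difference of 0.16 (SE 0.08, adjusted p 0.661). In *Mrpl14*, *Mrps22* and *Mrps31* both high MMP values lay above both low MMP values. In *Mrpl14* the upper low MMP value was close to the lower high MMP value. None of these differences passed the test.

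**Figure D4:**
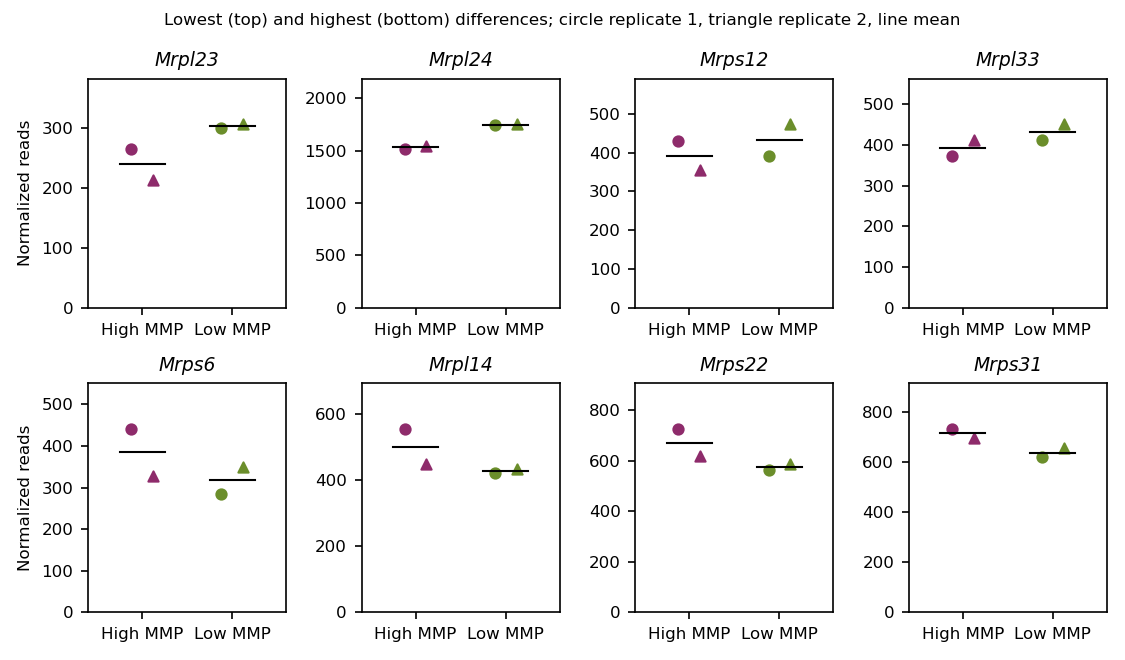
The 4 genes with the lowest (top row) and the 4 with the highest (bottom row) high minus low MMP difference, with normalized reads on the y axis from 0. Circles are replicate 1, triangles replicate 2 and lines group means. *Mrpl24* shows tight groups that do not overlap, while *Mrps6* and *Mrps12* overlap.

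Members with a known special role were read as landmarks. The stalk of the large subunit, which recruits translation factors, is built on *Mrpl10*, *Mrpl11* and *Mrpl12*. *Mrpl12* had 2608 and 2286 normalized reads in high MMP and 2430 and 2485 in low MMP cells, *Mrpl10* had 1628 and 1413 against 1412 and 1539, and *Mrpl11* had 1051 and 792 against 855 and 977. In all 3 the groups overlapped, and the differences were -0.0090, 0.041 and -0.0025. The 95% interval of *Mrpl12* was the narrowest of the 3, from -0.28 to 0.26.

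*Mrpl45*, which holds the ribosome to the inner membrane, had 1450 and 1218 against 1356 and 1417, a difference of -0.061. *Mrpl58*, a hydrolase that frees stalled ribosomes and became part of the large subunit, had 579 and 474 against 446 and 547, a difference of 0.085. *Mrpl44*, related to RNase III and mutated in a human mitochondrial cardiomyopathy, had 568 and 531 against 526 and 587, a difference of -0.018. The groups overlapped in each of these genes. *Mrps16*, whose loss causes a human respiratory chain deficiency, had 413 and 396 against 441 and 412, a difference of -0.076 with overlapping groups.

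The 3 paralogs of the bacterial S18 protein occupy different sites. *Mrps18a*, in the large subunit, had 1140 and 917 against 942 and 1057. *Mrps18b*, in the small subunit, had 946 and 1076 against 1041 and 1024. It was 1 of the 5 members that were not higher in high MMP replicate 1 than in replicate 2. *Mrps18c*, the one closest to the bacterial form, had 164 and 157 against 157 and 146. Per length, *Mrps18a* stood at 1147, *Mrps18b* at 947 and *Mrps18c* at 190 normalized reads per kilobase. Their differences were 0.036, -0.033 and 0.083, and only *Mrps18c* among these paralogs showed no overlap. Its groups nearly touched, with a lower high MMP value of 157.3 and an upper low MMP value of 156.9.

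The other members with an Mrps symbol outside the small subunit were also read alone. *Mrps30*, in the large subunit, had 843 and 817 against 941 and 874, a difference of -0.13 (SE 0.08, adjusted p 0.731) without overlap. *Mrps36* had 355 and 315 against 354 and 381, a difference of -0.13 (SE 0.11, adjusted p 0.797) with overlap. Its processed pseudogenes *Mrps36-ps1* and *Mrps36-ps2* had at most 7.58 normalized reads in any library.

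**Figure D5:**
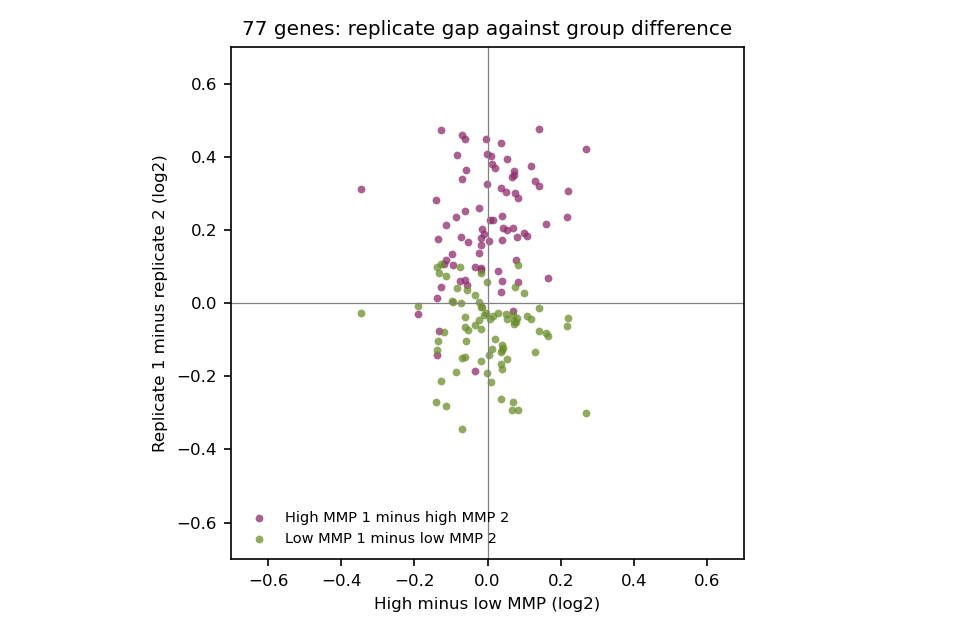
Each gene is plotted 2 times at its high minus low MMP difference (x axis, log2), once by the gap between the high MMP samples and once by the gap between the low MMP samples (y axis, log2, replicate 1 minus replicate 2). Axes have equal scales. The purple points of the high MMP gap lie mostly above 0 (72 of 77, median 0.21), while group differences stay between -0.35 and 0.27.

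The genes are spread over 17 chromosomes, so their promoters were read for shared features. RefSeq start sites (GRCm38.p6) gave 74 windows of 300 bases, from 250 before to 50 after the start, for 68 of the 77 members. The windows of 4 members are printed, each on its coding strand with the ETS or YY1 letters, where present, in capitals. The Sp1 word described next is also in all 4 windows and is left in lower case. They are *Mrpl23* and *Mrps6*, which hold the extreme differences, *Mrps22*, with a match for ETS factors, and *Mrps11*, which shares its start region with a large-subunit gene.
Mrpl23, chr7:142532782-142533081, plus strand: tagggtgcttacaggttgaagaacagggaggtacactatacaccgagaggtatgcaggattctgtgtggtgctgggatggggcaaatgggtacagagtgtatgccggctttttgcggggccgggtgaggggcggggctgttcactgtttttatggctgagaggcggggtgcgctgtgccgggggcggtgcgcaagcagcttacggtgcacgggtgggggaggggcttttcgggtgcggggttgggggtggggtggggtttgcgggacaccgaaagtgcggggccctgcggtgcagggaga
Mrps6, chr16:92058086-92058385, plus strand: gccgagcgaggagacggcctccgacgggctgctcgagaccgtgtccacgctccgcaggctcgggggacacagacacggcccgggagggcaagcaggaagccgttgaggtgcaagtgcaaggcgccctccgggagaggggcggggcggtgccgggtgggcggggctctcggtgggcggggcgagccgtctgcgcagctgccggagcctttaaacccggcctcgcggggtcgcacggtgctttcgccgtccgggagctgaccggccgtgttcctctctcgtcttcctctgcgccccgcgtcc
Mrps22, chr9:98601630-98601929, minus strand, ETS letters in capitals: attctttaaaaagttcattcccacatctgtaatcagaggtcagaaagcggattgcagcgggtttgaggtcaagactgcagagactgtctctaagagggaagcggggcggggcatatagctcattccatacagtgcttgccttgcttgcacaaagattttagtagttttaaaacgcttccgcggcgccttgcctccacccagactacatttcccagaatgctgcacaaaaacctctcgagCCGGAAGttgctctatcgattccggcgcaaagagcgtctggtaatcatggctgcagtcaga
Mrps11, chr7:78782881-78783180, plus strand, YY1 letters in capitals: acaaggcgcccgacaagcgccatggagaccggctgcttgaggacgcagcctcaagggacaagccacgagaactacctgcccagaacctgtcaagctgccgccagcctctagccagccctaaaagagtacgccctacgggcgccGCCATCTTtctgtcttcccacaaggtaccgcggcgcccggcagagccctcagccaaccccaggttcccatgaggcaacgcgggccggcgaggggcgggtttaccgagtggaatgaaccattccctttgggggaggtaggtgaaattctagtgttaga

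Each motif was searched as a fixed word on both strands. The word CCGGAAG, bound by ETS factors such as GABPA, was in 33.8% of member windows, against 18.1% of the 11979 windows of expressed genes and 8.86% of all 32851 windows. The word AAGATGGC, a core of the YY1 site, was in 16.2%, 4.56% and 2.75%, and GCATGCGC, a core of the site for the respiratory factor NRF1, in 10.8%, 5.29% and 2.71%. These shares were higher in member windows than in the windows of expressed genes. They were similar for the Sp1 word GGGCGGG (43.2% against 46.9%) and the NF-Y word CCAAT (39.2% against 38.0%). No test is given for these shares, and a match is not a bound site.

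The words for NRF1, ETS or YY1 were in 37 of the 68 members and none of them in 31. Members with the ETS word had a median high minus low difference of -0.014 and those without it one of 0.020. For YY1 the medians were -0.019 and 0.0069, and for NRF1 0.0021 and 0.0020. The 2 extreme genes, *Mrpl23* and *Mrps6*, held none of the 3 words in the printed windows. The *Mrpl23* window begins after the annotated gene start given above, so sequence before that start was not searched. *Mrps22*, with the ETS word, and *Mrpl14*, without any of the 3, had the same difference of 0.22.

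Another feature was a start site that faces a neighbour. The window of 24 members overlapped the window of a gene on the opposite strand, in 35.1% of member windows against 17.3% of those of expressed genes. Partners were of many kinds, such as *Klc4*, *Hira* and *Psma2*, and those described here are some that act in mitochondria. *Mrps12* shares its window with *Sars2*, the mitochondrial seryl-tRNA synthetase, and *Mrpl43* with *Twnk*, the mitochondrial DNA helicase. *Mrpl46* of the large subunit and *Mrps11* of the small subunit share 141 bases (chr7:78783040-78783180), all within the *Mrps11* window printed above.

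*Mrpl46* had 497 and 431 normalized reads in high MMP and 401 and 484 in low MMP cells, and *Mrps11* had 524 and 438 against 479 and 495. Both were highest in high MMP replicate 1, with groups that overlapped and differences of 0.071 and -0.024. *Sars2* had 337 and 346 against 401 and 392, a difference of -0.22, while its neighbour *Mrps12* had overlapping groups. *Twnk* had 1009 and 1289 against 1384 and 1247, a difference of -0.20, with *Mrpl43* at 0.014. The medians of members with and without a shared window were 0.0066 and 0.00087. Exons of 32 members overlap another annotated gene, in 27 cases on the opposite strand and in 7 on the same strand, and how such reads were counted is not given in the sources used here.

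The rest of the mitochondrial translation system was read from lists of 65 symbols, of which 63 were matched in the table. The unmatched symbols were *Mtrfr*, not found under that name, and a second name of a listed gene (*Wbscr16* and *Rcc1l* are the same gene). None passed the adjusted threshold (0 of 63), and 2 (3.17%) had an unadjusted p under 0.05, against 9.96% of all genes. Of the 12902 expressed genes, 984 had such a p. Of the 63 genes 19 lay above 0 and 44 below, with a median of -0.061. In 19 (30.2%) both high MMP values lay below both low MMP values, and in 7 (11.1%) they lay above, against 23.7% and 14.3% of expressed genes. Their median gap between the high MMP samples was -0.035, and 28 of 63 were higher in replicate 1. All of these are descriptions, set beside a median of -0.035 over expressed genes.

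By role, the translation factors had a median of -0.071 (15 genes), the mitochondrial aminoacyl-tRNA synthetases -0.11 (17 genes) and the assembly and rRNA modification factors -0.038 (24 genes). *Tufm*, the elongation factor that brings tRNAs to the mitoribosome, had 2269 and 2131 in high MMP against 2580 and 2779 in low MMP cells. Its difference was -0.28 (SE 0.09, unadjusted p 0.0283, limma adjusted p 0.472). *Mrm1*, a methyltransferase of the mitochondrial rRNA, had 164 and 151 against 207 and 196. Its difference was -0.35 (SE 0.12, unadjusted p 0.0406, limma adjusted p 0.472). In both genes the groups did not overlap, and neither passed after adjustment.

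The 5 mitoribosomal proteins that carry other symbols had a median difference of -0.046, and all 5 were higher in high MMP replicate 1 than in replicate 2. *Dap3*, a small-subunit protein that binds GTP, had 1857 and 1721 against 1993 and 1965, a difference of -0.15 without overlap. *mt-Rnr1*, the RNA of the small subunit, had 2685 and 3275 against 3248 and 4697, and *mt-Rnr2*, that of the large subunit, had 13375 and 26354 against 21067 and 20867. Their differences were -0.40 and -0.16 (adjusted p 0.689 and 0.955), with overlap in both. The libraries were made from mRNA, so these levels need not reflect the amount of ribosomes.

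Markers of the cell cycle were read beside the members. Both lists were chosen with earlier results of these data known, so their counts describe the lists and are no independent support for a pattern. The 10 genes of G2 and mitosis had a median difference of 0.90, with 9 above 0 and 8 at an unadjusted p under 0.05. *Ccnb2*, a mitotic cyclin, was the exception at -0.13. For the 10 genes of S phase the median was -0.51, with 10 of 10 below 0 and 7 at an unadjusted p under 0.05. Over all genes 9.96% had an unadjusted p under 0.05. *Ube2c*, a ubiquitin-conjugating enzyme of mitosis, had a difference of 1.30, and *Ung*, a uracil glycosylase of replicating cells, had -1.90. None of these 20 genes passed the adjusted threshold in limma (smallest adjusted p 0.472). The members' median beside them was -0.00028. The part of cell-cycle phase in the members' values was not tested.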

How the data were processed

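RNA sequencing of 2 high MMP and 2 low MMP samples was analysed, grouped by the sample titles. Per the submitters' processing notes and methods, the authors aligned reads with STAR to GRCm38 (mm10), with HTSeq also named, scaled the libraries to their totals and retained genes expressed in at least 2 of the 4 samples. Versions, the annotation release and the handling of multi-mapping reads are not given in the sources used here. The deposited values are a normalized signal per gene, summing to 20000000 per library. Dividing by the step of each column gave whole reads, within 0.1 of a whole number, for 100.0% of values. This also gave the depth (22591970 to 26395015 reads). Over the members, the spread between replicates exceeded counting error more in the high MMP samples (chi-square per gene 17.7) than in the low MMP samples (3.44).

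Identifiers were matched to GENCODE M21 (19993 of 20197). The main test was limma 3.58.1 (trend, R 4.3.3) on log2(value + 1), which understates changes of low genes, with MMP group as its sole term and Benjamini-Hochberg adjustment over all 20197 genes at 0.05. Alternatives were pseudocounts 0.1 and 10, a mean of at least 10, median-of-ratios and quantile scaling, the sample number as a block, leaving out each sample, edgeR 4.0.16 and DESeq2 1.42.0 on the recovered reads, placement by structure, and removal of a loess trend on transcript length (span 0.5). Scripts were tested on simulated data.

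The members and lists were chosen with earlier results of these data known. Named genes were the 4 largest differences in each direction, the 6 smallest p, the 3 highest and 3 lowest levels per kilobase and fixed landmarks, 27 in all. *Mrpl16*, *Mrpl28*, *Mrpl43*, *Mrpl46* and *Mrps11* were named outside this rule after their values were seen. Promoter sequences are from RefSeq (GRCm38.p6). Protein sequences were not used here.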

Additional observations from a re-analysis of the deposited data

How the results depend on the processing

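The count of members past the adjusted threshold was 0 under every alternative run. Over all genes, limma called 0 under all alternatives but the length correction, which called 23. On the recovered reads, DESeq2 called 118 genes, edgeR 106 with the replicate block, and edgeR with crossed numbers (chosen after seeing the data) 733, including 1 pathway gene, *mt-Rnr1*. The labels give both groups the numbers 1 and 2 without linking them, and the numbers were not taken to pair the samples. The deviations of same-numbered samples had a correlation of -0.42 over 12902 genes. With 1 gap between replicates in each group, that correlation cannot show whether the samples were paired. With the replicate block limma called 0 genes. The cause of these changes in count was not tested.

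Leaving out 1 sample gave member medians from -0.10 to 0.12, large-subunit medians from -0.11 to 0.14, small-subunit medians from -0.092 to 0.086 and large minus small values from -0.014 to 0.054. The upper values came without high MMP replicate 2, where 11 members (14.3%) had an unadjusted p under 0.05, against 16.6% of all genes. Without high MMP replicate 1 it was 4 members (5.19%), against 11.2% of all genes. With 1 sample left in a group, that sample is assumed to vary like the others.

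No named gene crossed the threshold under any alternative, but differences close to 0 changed sign, and the direction of such a gene should not be read. With median-of-ratios scaling, the sign changed in *Mrpl11* (0.039), *Mrpl12* (0.032), *Mrpl44* (0.024) and *Mrps18b* (0.0084). With quantile normalization, the sign changed in *Mrpl11* (0.027), *Mrpl12* (0.00013), *Mrpl44* (0.034) and *Mrps33* (0.015). In edgeR, the sign changed in *Mrpl11* (0.047), *Mrpl12* (0.032), *Mrpl44* (0.019) and *Mrps18b* (0.0068). With the replicate block in edgeR, the sign changed in *Mrpl11* (0.036), *Mrpl12* (0.029), *Mrpl44* (0.020) and *Mrps18b* (0.0044). With crossed numbers in edgeR, the sign changed in *Mrpl11* (0.037), *Mrpl12* (0.029), *Mrpl44* (0.019) and *Mrps18b* (0.0046). In DESeq2, the sign changed in *Mrpl11* (0.052), *Mrpl12* (0.036), *Mrpl44* (0.023) and *Mrps18b* (0.011). After the length correction, the sign changed in *Mrpl11* (0.059), *Mrpl12* (0.042), *Mrpl44* (0.035), *Mrpl45* (0.00090) and *Mrps18b* (0.013). Leaving out 1 sample changed the sign in *Mrpl10* (-0.061 to 0.14), *Mrpl11* (-0.21 to 0.20), *Mrpl12* (-0.10 to 0.086), *Mrpl13* (-0.14 to 0.031), *Mrpl17* (-0.19 to 0.21), *Mrpl20* (-0.11 to 0.25), *Mrpl42* (-0.14 to 0.25) and *Mrpl44* (-0.097 to 0.062). It also did so in *Mrpl45* (-0.19 to 0.065), *Mrpl48* (-0.18 to 0.20), *Mrpl58* (-0.062 to 0.23), *Mrps12* (-0.28 to 0.00073), *Mrps18a* (-0.12 to 0.19), *Mrps18b* (-0.13 to 0.060) and *Mrps33* (-0.24 to 0.10).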
